A study of Drosophila melanogaster with 4 samples.

Results

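The spalt complex of Drosophila melanogaster was examined for Homothorax binding in whole embryos labelled 0 to 8 h. It was taken as the 150 kb from 11.33 to 11.48 Mb on chromosome arm 2L (FlyBase release 5, 1-based), and every Homothorax peak whose midpoint lay in that interval was a member. There were 35 such peaks among the 1376 on 2L and the 6207 in the authors' peak list. Membership used position alone, not score or width. The Release 6 gene table gives the order of genes here by rising position as CG14926, lncRNA:CR44586, salr (CG4881), lncRNA:CR43681, salm (CG6464), lncRNA:CR46454 and sala, so that 1 annotated gene, a long non-coding RNA, separates salr from salm. That table describes another build, so no peak was assigned to a gene, exon, intron or UTR.

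salm (spalt major) and salr (spalt-related) are paralogues that encode zinc finger transcription factors. In the embryo salm is known as a region-specific homeotic gene of the head and tail, and it also acts in the dorsal trunk of the tracheal system and in the oenocytes. In imaginal discs both genes respond to Dpp signalling in the wing, Ubx represses them in the haltere, and salm lies genetically downstream of homothorax (hth) and Distal-less in the antenna. Homothorax itself is a TALE homeodomain protein. It binds DNA with Extradenticle, which it brings into the nucleus, and the pair serves as cofactor to Hox proteins.

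The study comprised 4 libraries, 2 from Homothorax ChIP and 2 from input DNA, all from the y cn bw sp strain, with no treatment named in the labels. The genotype of every library held the alleles y[1] and oc[R3.2], then cn[1], bw[1], sp[1], Gr22b[1], Gr22d[1] and CG33964[R4.2], and also Rh6[1], GstD5[1], lab[R4.2], LysC[1] and MstProx[1]. Sex was unknown, embryos were collected in bulk from population cages, and the ChIP used a crude guinea pig polyclonal serum against full-length His-tagged Homothorax. The shared extract protocol opens with an 8 to 16 h laying window, which differs from the stage label; the label was used.

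One value per peak is given for the whole series, with no value per library. No replicate error exists for any peak, no test over samples was possible, read depth is unknown, and all comparisons below are descriptions of 1 list. The authors' score comes without a stated unit and was used only to rank and describe peaks within the list. A strong peak below is one with a high score, not one with a measured amount of binding. In chromatin from whole embryos, strong binding in few cells and weak binding in many cells cannot be told apart.

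Homothorax peaks were densely packed at the spalt complex, and their scores were mostly those of ordinary peaks. The interval held 233 peaks per Mb, against 61.3 per Mb on 2L, a ratio of 3.80. It made up 0.669% of the extent of 2L and carried 2.54% of its peaks. Peaks covered 31.6 kb, or 21.0% of the interval, whereas 5.49% of 2L lay inside peaks. The median score of the 35 peaks was 17.3, close to 17.07 on 2L and 16.93 over the whole list. The lowest member scored 7.98 and the highest 122.49, with quartiles at 11.7 and 34.0.

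The upper end of the scores was somewhat fuller than in the list. Among the 35 peaks, 8 (22.9%) scored 40 or more, against 17.5% of all peaks, and 5 (14.3%) scored 80 or more, against 6.33%. Another level up, 3 members (8.57%) scored 100 or more, against 4.32% of the list, while at 20 or more the members' 16 (45.7%) stood beside 40.7%. On 2L the shares at 20, 40, 80 and 100 or more were 43.1%, 18.6%, 6.83% and 4.80%. At the lower end 6 members (17.1%) scored under 10, against 14.3%. These shares rest on few peaks that lie next to one another, so the differences from the list are small in number.

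The members fell into 3 runs and 3 single peaks, where a run joins consecutive peaks with gaps of at most 5 kb. The left run, 11334404 to 11357468, held 14 peaks over 23.1 kb. The middle run, 11410769 to 11421636, held 6 peaks over 10.9 kb. The right run, 11445351 to 11474925, held 12 peaks over 29.6 kb. The single peaks lay at 11362611 to 11362854, at 11376476 to 11377235 and at 11432957 to 11434005. The outer runs together contained 26 of the 35 peaks and 7 of the 8 that scored 40 or more.

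**Figure D1:**
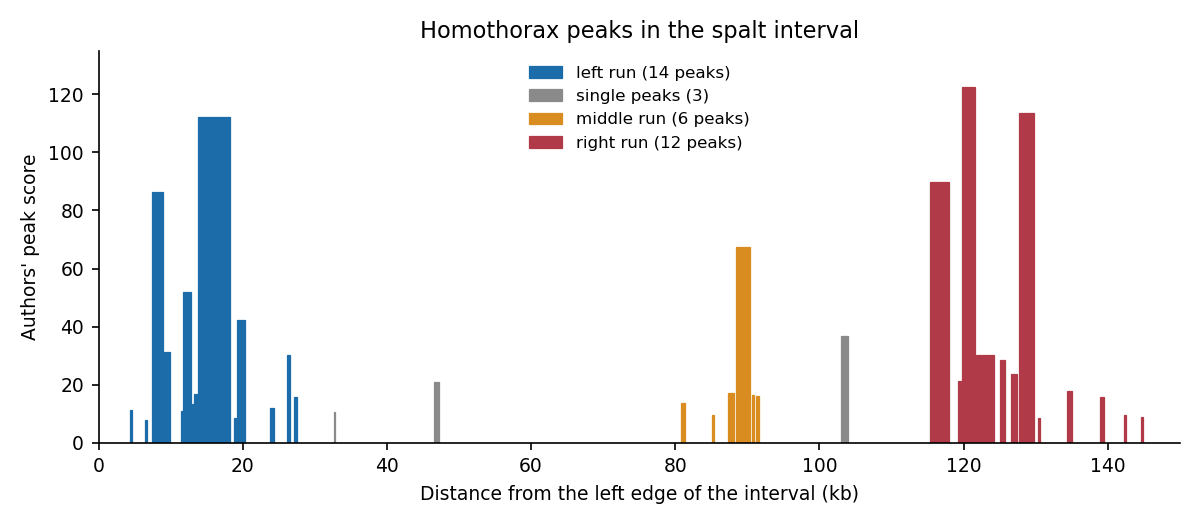
Each bar is 1 Homothorax peak, placed by its distance from the left edge of the interval (kb), as wide as the peak and as high as the authors' score; colours mark the 3 runs and the 3 single peaks. High bars stand at 8 to 20 kb, at 89 kb and at 116 to 129 kb, and no peak lies in the 33.5 kb between the second single peak and the middle run.

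The left run had a broad peak with narrower strong peaks on both sides. The broad peak, at 11343752 to 11348231, was with 4.48 kb the widest of the interval and scored 112.02, rank 211 of the list by score and 50 by width. To its left, peaks of 1.57 kb at 11337395 to 11338966 and of 1.05 kb at 11341768 to 11342817 scored 86.46 and 51.83. To its right, a peak of 1.18 kb at 11349166 to 11350346 scored 42.2. These are the 4 peaks of the left run that scored 40 or more.

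The other 10 peaks of the left run were narrow, from 210 to 718 bp, and scored from 7.98 to 31.29. The highest of them, at 11339121 to 11339838, lay 154 bp from the peak scoring 86.46. The lowest score of the interval, 7.98, belonged to a 210 bp peak at 11336454 to 11336663, also the narrowest member. Between 11341450 and 11348231 there were 5 peaks with only 45 to 162 bp between neighbours, so that the caller's gaps there were far shorter than the peaks. The run was 51.8% covered by peaks and had a median score of 16.4.

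The right run carried the highest score of the interval. The peak at 11449822 to 11451582 scored 122.49, rank 171 of the list, over 1.76 kb. A peak of 2.10 kb at 11457719 to 11459821 scored 113.5, rank 204, and a peak of 2.65 kb at 11445351 to 11448002 scored 89.88, rank 320. These 3 strong peaks lay within 14.5 kb, the outer pair both wider than the top one.

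The wide peak beside the top one scored low for its width. This peak, at 11451747 to 11454206, was 2.46 kb wide, the third widest member, yet scored 30.33, and it lay 164 bp from the top peak. Of the 400 peaks over 2 kb in the list, whose median score was 81.8, 21 (5.25%) scored 30.33 or less, this peak included. Most of these 21 lay in 2 dense runs of 2L, at 21416903 to 21440769 and at 21451050 to 21543478. The top scores of those runs were 39.21 and 37.65. A left-run peak of 461 bp, at 11356130 to 11356590, scored 30.24, nearly the same as the 2.46 kb peak. The 2.46 kb peak is also the only one of the 4 members over 2 kb that stayed under a score of 40.

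Beyond the strong peaks the right run thinned out in number and score. After 11459821 its 5 remaining peaks were 266 to 673 bp wide and scored 8.53, 17.68, 15.8, 9.42 and 9.0 in order of position. Gaps between these 5 ranged from 2.03 to 3.80 kb. The run as a whole was 44.6% covered with a median score of 22.5.

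The middle run had a single strong peak. It lay at 11418443 to 11420309, was 1.87 kb wide and scored 67.39, rank 524. The other 5 peaks of this run, 304 to 772 bp wide, scored from 9.42 to 17.3, and 3 of them lay within 313 bp of the strong one or of each other. Of the single peaks, that at 11432957 to 11434005 was the strongest, with a score of 36.72 over 1.05 kb. The single peaks at 11376476 and at 11362611 scored 20.9 and 10.55. With the 36.72 peak and the 31.29 peak of the left run, the 10 highest-scoring members were complete.

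Long stretches without a peak separated these runs, since a run by definition ends at a gap over 5 kb. The longest, from 11377236 to 11410768, measured 33.5 kb, and 10.8% of the 1375 gaps on 2L were as long or longer. The next were 13.6 kb, from 11362855 to 11376475, and 11.3 kb, from 11434006 to 11445350, followed closely by another of 11.3 kb on the other side of the 36.72 peak. Of the 34 gaps in the interval, 5 were over 5 kb, and they added up to 74961 bp, 50.0% of the interval. On 2L a larger share of gaps, 391 of 1375, was over 5 kb. The part of 2L that lay in such gaps was not computed. The interval was not emptier than the arm, with 21.0% of it inside peaks against 5.49% of 2L. Of 15 steps of 10 kb, 3 held no peak centre, all of them in the longest gap, and the fullest step, 10 to 20 kb from the left edge, held 7.

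Elsewhere in the interval the peaks were close together, much as on 2L in general. Of the 34 gaps between neighbours, 18 were 1 kb or less and 4 were under 100 bp. On 2L, 636 of 1375 gaps were 1 kb or less and 104 were under 100 bp. The median gap was 894 bp, against 1191 bp on 2L. The distance from a peak centre to the nearest other centre had a median of 1.67 kb, against 1.39 kb on 2L, so by that measure members were no closer than 2L peaks in general. Another centre lay within 10 kb for 33 of 35 members (94.3%), against 85.1% of all peaks and 91.0% of those on 2L. The exceptions were the single peaks at 11376476 and 11432957.

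Wider members scored higher, as in the whole list. Spearman's rho between score and width was 0.91 over the 35 members, 0.83 over 2L and 0.81 over all peaks, given as a description because neighbouring peaks share libraries and chromatin. All 8 members that scored 40 or more were over 1 kb wide, while the 16 members of 500 bp or less scored at most 30.24. The list as a whole had no such clean split, but on 2L the exceptions were few. On 2L outside the interval, some peaks of 500 bp or less scored 40 or more, and some under 1 kb scored 100 or more. Median width was 608 bp, against 513 bp on 2L and 483 bp in the list. Over 1 kb were 10 members (28.6%), against 20.3% of all peaks and 23.8% of those on 2L. Over 2 kb were 4 (11.4%), against 6.44% of all peaks and 9.52% on 2L. The 8 members that scored 40 or more made up 52.8% of the bases inside peaks, and the 3 widest made up 30.4%.

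**Figure D2:**
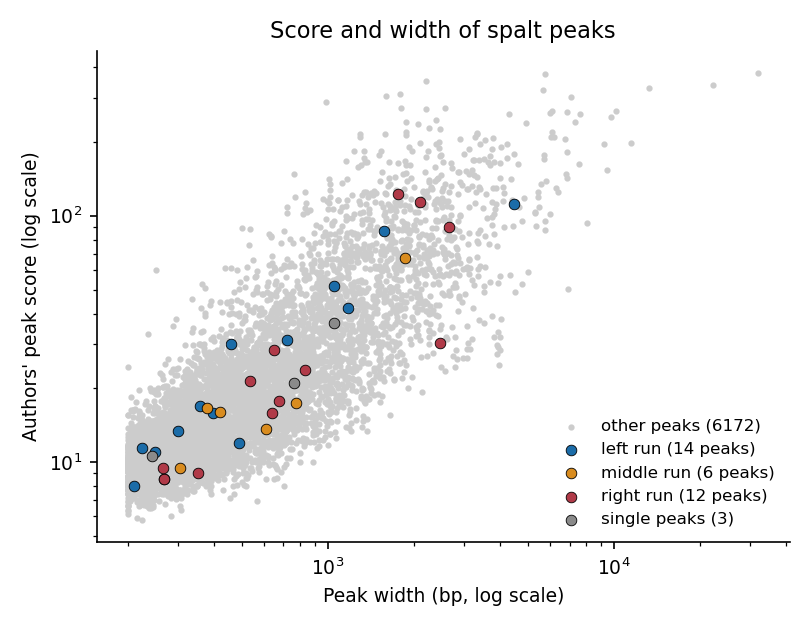
Each point is 1 peak, with its width (bp, log scale) on the x axis and the authors' score (log scale) on the y axis; grey points are the 6172 peaks outside the interval and coloured points the 35 members by run. Members follow the band of the list, and the right-run peak of 2.46 kb with a score of 30.33 lies at its lower side.

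The interval ended differently on its 2 sides. The last peak before its left edge, at 11327428 to 11328175, scored 33.13 over 748 bp and lay 6.23 kb from the leftmost member, which scored 11.39. The rightmost member, at 11474573 to 11474925, scored 9.0 over 353 bp, and the next peak to the right, at 11582261 to 11582641 with a score of 21.73, followed after 107 kb. On 2L, 62 of 1375 gaps (4.51%) were as long. The 150 kb to the left held 14 peaks with a top score of 103.61 and 12.7 kb inside peaks. The 150 kb to the right held 1 peak and 0.381 kb inside peaks, beside 35 peaks and 31.6 kb in the interval itself. Whether reads can be mapped throughout the peak-free stretches was not tested.

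**Figure D3:**
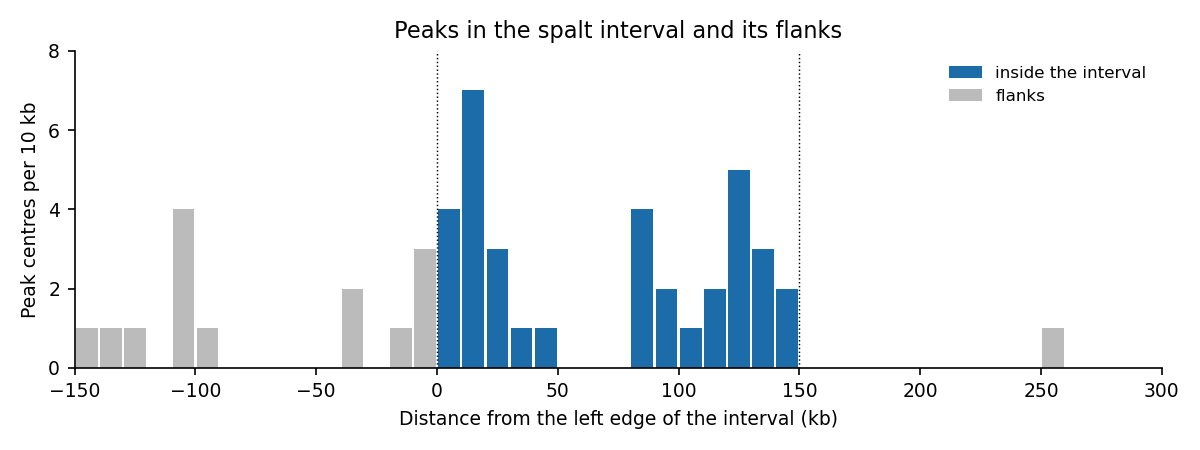
Bars give the number of peak centres per 10 kb from 150 kb left of the interval to 150 kb right of it; blue bars lie inside the interval, grey bars in the flanks, and dotted lines mark its edges. Peaks stand mainly at 0 to 30 kb and at 80 to 150 kb, and the right flank is empty apart from 1 peak.

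Beside other stretches of the same length, the spalt interval was among the fuller ones. Of the 773 other whole windows of 150 kb on 2L, 2R, 3L, 3R and X, 19 (2.46%) held 35 peaks or more, where the median window held 5 and the fullest 74. On 2L alone 5 of 147 windows (3.40%) did. As many bases inside peaks were found in 25 windows (3.23%), against a median of 2.47 kb. At least 8 peaks that scored 40 or more occurred in 27 windows (3.49%). A top score of 122.49 or more was more frequent, in 110 windows (14.2%). On 2L alone the shares for these last 3 quantities were higher, at 5.44%, 5.44% and 17.0% of windows. The interval was drawn around 2 genes rather than tiled, and earlier results of these data were known when it was chosen. These shares therefore describe its place and are no test.

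**Figure D4:**
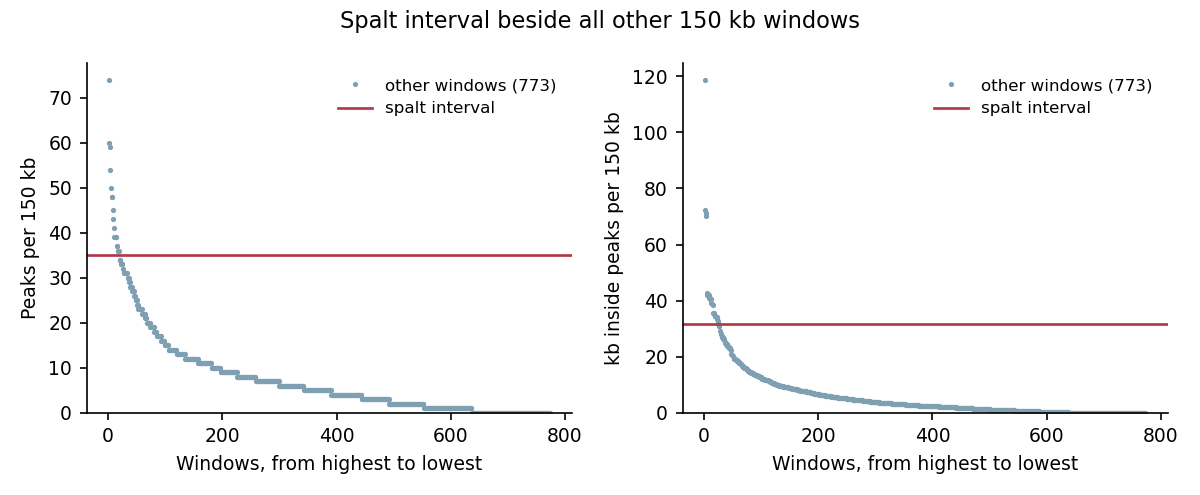
Points are the 773 other 150 kb windows ordered from highest to lowest, by number of peaks (left) and by kb inside peaks (right), and the red line is the spalt interval. The line at 35 peaks is reached by 19 windows and the line at 31.6 kb by 25.

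Run by run, the outer spalt runs ranked mostly in the middle of the dense stretches of the list. The list held 106 runs of 10 or more peaks on the 6 arms (those above and chromosome 4), with a median of 13 peaks, 24.9 kb, 50.1% covered and a top score of 115. The left run ranked 42 by number of peaks, 46 by share covered and 58 by top score. The right run ranked 59, 74 and 50. By median score the right run ranked 23 and the left run 68.

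**Figure D5:**
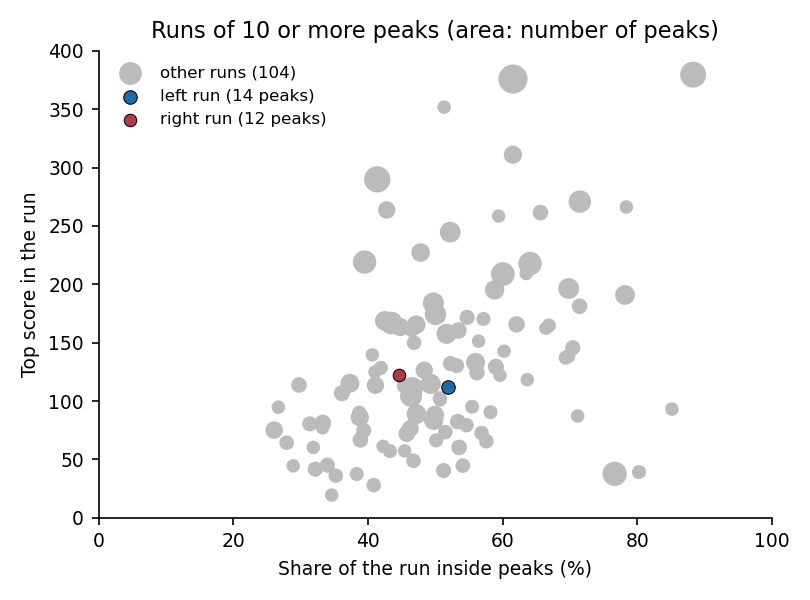
Each circle is a run of 10 or more peaks, with the share of its length inside peaks (%) on the x axis, its top score on the y axis and an area in proportion to its number of peaks. The left and right spalt runs, at 51.8% and 44.6%, sit inside the cloud of the 104 other runs.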

How the data were processed

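The values are the authors' peak list as deposited, 1 table for the whole series with start, end and a score for each peak. Per the file headers, positions are on FlyBase release 5 and peaks were written by MACS. The submitters' processing notes name BDGP5, CASAVA 1.7.0.2 and 1.7.0.3, BWA and MACS2. The unit of the deposited score, pooling of replicates and the calling threshold are not stated in any source used here. Cross-linking of the embryos took 15 min in 1.8% formaldehyde, per the labels' protocols.

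Width is end minus start plus 1 bp. Windows of 150 kb were tiled from position 1 to the last peak of each arm, without those overlapping the interval. Calculations used Python 3.11.15, numpy 2.4.6, pandas 2.3.3 and scipy 1.17.1, with figures by matplotlib 3.10.9, and counting was tested on simulated lists. The named peaks are the 10 highest-scoring, the 3 widest, the lowest, those beside the 3 longest gaps and those at the edges; others named were chosen after their values were seen. The interval, thresholds and rules were chosen with earlier results of these data known. Sequences, motifs and the planned list of pathway genes were not used here, as no release 5 genome or annotation was at hand. Read depth is unknown, and no error per peak could be given.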

Additional observations from a re-analysis of the deposited data

How the results depend on the processing

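Of 47 alternatives, 33 left the value within 1.5 times (counts, bases) or within the 95% binomial interval of the median, and 14 moved it. That interval treats neighbouring members as independent, which they are not. It served only as a bound for this tally and is no error of the median. Taking whole or overlapping peaks in place of midpoints could change no value, because no peak crossed an edge of the interval. These settings are nevertheless counted among the 33. Widening the interval by 25 kb on each side gave 39 peaks. Narrowing it by 25 kb on each side cuts off most of the outer runs and left 15 peaks, 14670 bp inside peaks, 3 peaks that scored 40 or more, 2 over 2 kb and a longest run of 6 peaks. Merging peaks closer than 1 kb left 17 peaks, 5 of them with a score of 40 or more, a longest run of 6 and a median nearest-centre distance of 4114 bp. The same merging took the whole list from 6207 to 3744 peaks, so much of the fall is shared by the list. The share of the merged list with a score of 40 or more was not computed. The higher-scoring 50% of the list included 19 members, and the longest run then held 8. A score threshold of 20 gave 16 peaks and one of 80 gave 5, and a width threshold of 1 kb gave 10. A lower threshold can only raise such a count and a higher one only lower it. Keeping 50% of the list can likewise only remove members. The tally of 33 and 14 is therefore no measure of robustness. The median score stayed between 17.3 and 20.9. Windows shifted by 75 kb gave 21 as full in peaks and 21 as full in bases. No paired analysis was possible because each peak has a single value for all libraries, and leaving out a replicate could not be done either.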

Other observations

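With peaks closer than 1 kb merged, the spalt interval reduced to a few broad stretches and small isolated peaks. The widest merged stretch lay in the right run, at 11449195 to 11460620, and measured 11.4 kb and reached a score of 122.49. The next lay in the left run, at 11341450 to 11350346, and measured 8.90 kb with a top score of 112.02. The strong peak of the middle run became a stretch of 4.28 kb at 11417358 to 11421636. Merging left the peak at 11445351 to 11448002, with a score of 89.88, as it was.

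Scores recurred across the list. The 6207 peaks took 2346 distinct scores, and 76.7% of peaks shared their score with at least 1 other. Of the 35 spalt peaks, 28 shared a score with another peak of the list and 6 with another member. The score 8.53, found in both outer runs, occurred 36 times.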
